A study of Rattus norvegicus with 10 samples.

Results

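Transcripts of 10 complement genes were followed in the supraoptic nucleus of rats in which the opsin Opn3 had been knocked down. The genes were taken by name from the deposited table, as C1qa, C1qb, C1qc, C1r, C1s, C2, C4b, C3, Cfb and the receptor gene C3ar1. They occupied 11 of the table's 32623 rows, because Cfb stood in 2 of them. Of these 10 genes 9 had reads and entered the tests, among 15597 genes tested in all.

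Both groups came from male Sprague Dawley rats that had received adeno-associated viruses in both supraoptic nuclei, with a hairpin that targets Opn3 in one nucleus (shOpn3, n = 5) and a hairpin without a target in the other (shControl, n = 5). No nucleus without virus was analysed here, so changes that the injection or the virus caused on both sides are part of both groups. Tissue was taken 2 weeks later with a 1-mm punch from sections of 100 µm, and RNA of each nucleus was sequenced on its own. The promoter that drove the hairpins, the cell types that took up the virus and the age of the rats were not stated in the labels.

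Complement is a cascade of secreted proteins that marks cells, debris and synapses for uptake by phagocytes. In the classical pathway C1q binds its target and activates the proteases C1r and C1s, which cleave C4 and C2 into an enzyme that in turn cleaves C3. Factor B, encoded by Cfb, forms the matching enzyme of the alternative pathway, and C3ar1 encodes the receptor for the small fragment C3a. In brain tissue C1q is made mainly by microglia, and C3 and C4 are known from reactive glia.

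The libraries held between 33158341 and 39958578 reads, and values are normalized counts, read counts divided by 1 size factor per library (0.942 to 1.07). Opn3 was lower in shOpn3 (188 ± 59.7 against 704 ± 277, ± SD, n = 5 per group; a log2 change of -1.82, adjusted p = 0.00226 in limma), with overlapping groups because shControl replicate 5 stood at 261. The tissue's peptide markers Avp and Oxt were present in every library, at no less than 4619 and 3810 normalized counts. Both were lower in shOpn3, by log2 fold changes of -2.35 and -2.21 (limma adjusted p = 0.00269 and 0.000915). Tissue was bulk, so more cells of a type and more RNA per cell cannot be told apart in any result below.

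All 9 complement genes with reads rose in shOpn3, with log2 fold changes from 0.80 (C1r) to 3.0 (C3) and a median of 1.39. Their limma adjusted p ran from 0.000306 to 0.0266. Of all genes tested 18.8% were called, 10.4% higher and 8.48% lower, and the median log2 fold change over all genes was -0.02. For 8 of the 9 every shOpn3 sample lay above every control, against 15.3% of all genes tested that had no overlap, 8.03% with shOpn3 higher. C4b was the exception. Each of the 9 was higher in shOpn3 in 5 of 5 same-numbered pairs, against 18.7% of all genes. The smallest shControl mean among the 9 was 86.0 normalized counts (C4b), so each would have passed the minimum mean of 10 on its controls alone. The sizes of these changes are compared gene by gene below, but levels are not compared between genes, since transcript lengths were not used.

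**Figure D1:**
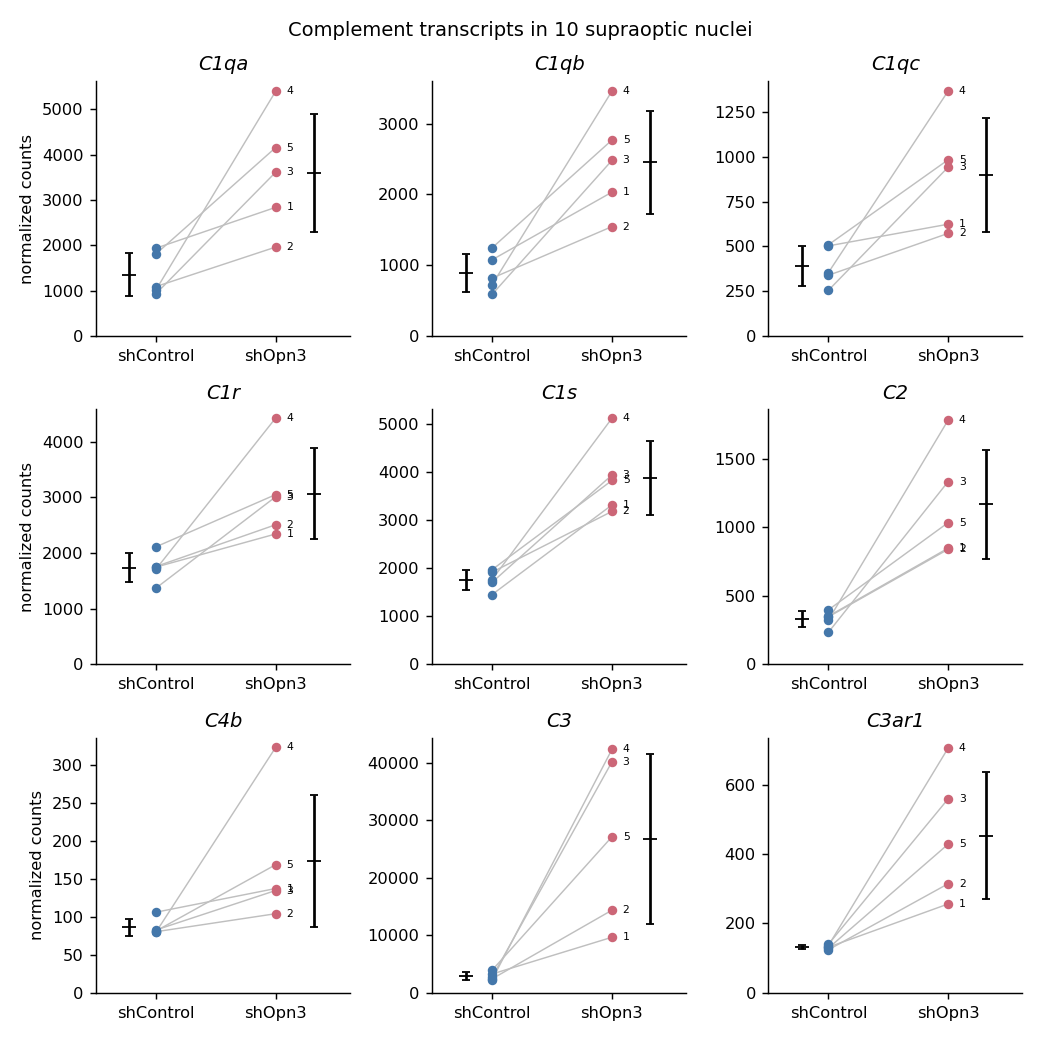
Normalized counts (vertical axes, each from 0) of the 9 complement genes with reads in the 5 shControl (blue) and 5 shOpn3 (red) samples. Grey lines join same-numbered samples, digits give the replicate number, and black bars give the mean ± SD; every line rises, and shOpn3 replicate 4 is the highest point in each panel.

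C1q, the recognition protein, is built from A, B and C chains that are encoded by 3 neighbouring genes. C1qa (ENSRNOG00000012807) had 1934, 1088, 929, 1012 and 1806 normalized counts in shControl replicates 1 to 5 and 2835, 1960, 3610, 5394 and 4154 in shOpn3 replicates 1 to 5. The 2 groups came close at their edges, with shControl replicate 1 just under shOpn3 replicate 2. Group means were 1354 ± 477 and 3590 ± 1304 (± SD, n = 5 per group), a log2 fold change of 1.39 (SE 0.275, adjusted p = 0.00431 in limma). C1qb (ENSRNOG00000012749) had 1076, 817, 587, 723 and 1244 in shControl and 2031, 1544, 2479, 3457 and 2767 in shOpn3, a log2 fold change of 1.46 (SE 0.232, adjusted p = 0.00124 in limma). C1qc (ENSRNOG00000012804) had 503, 339, 254, 353 and 508 in shControl and 624, 572, 942, 1367 and 983 in shOpn3, a log2 fold change of 1.17 (SE 0.250, adjusted p = 0.00660 in limma). For all 3 chains shControl replicates 1 and 5 were the high controls, while shOpn3 replicates 1 and 2 were the low knock-down samples.

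The proportions between the chains gave no call over all samples. The log2 difference of C1qb minus C1qa was -0.59 ± 0.17 in shControl and -0.52 ± 0.11 in shOpn3 (± SD, n = 5 per group), a change of 0.07 below the SD of either group (p = 0.468 by exact permutation, two-sided as in all tests here). C1qc minus C1qa went from -1.77 ± 0.17 to -1.99 ± 0.15 (± SD, n = 5 per group), lower in 5 of 5 pairs but not called (exact permutation p = 0.0714; 0.0893 after Benjamini-Hochberg adjustment over the 10 differences between genes that were computed). Without shOpn3 replicate 2 this difference was called, at -0.28 (adjusted p = 0.0476 by the same exact test).

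The RefSeq annotation (assembly GRCr8) places the genes side by side on chromosome 5, in the order C1qb, C1qc, C1qa. The 250 bases before the start sites of C1qa and C1qb are printed as the start regions of neighbours that rose together. The window of C1qa is chr5:154419934-154420183 and that of C1qb chr5:154407828-154408077, both on the minus strand of GRCr8. Capitals mark the match in C1qa to TTCNNNGAA, the palindrome bound by STAT factors, which begins 90 bases before the start site.
C1qa: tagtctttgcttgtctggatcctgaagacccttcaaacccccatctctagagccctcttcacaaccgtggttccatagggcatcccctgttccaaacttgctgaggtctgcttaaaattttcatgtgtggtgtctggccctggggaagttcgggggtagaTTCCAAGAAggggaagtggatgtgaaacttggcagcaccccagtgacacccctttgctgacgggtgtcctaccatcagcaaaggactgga
C1qb: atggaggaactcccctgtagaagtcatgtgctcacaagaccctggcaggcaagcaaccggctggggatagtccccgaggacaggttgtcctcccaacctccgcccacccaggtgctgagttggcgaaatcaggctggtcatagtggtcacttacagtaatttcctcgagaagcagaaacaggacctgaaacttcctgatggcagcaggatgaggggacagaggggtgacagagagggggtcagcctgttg
TTCNNNGAA was found in 7.67% of 33469 such windows. The C1qb window held no match to any of the motifs searched on both strands, which were also TTNNGNAA (C/EBP factors), the interferon-stimulated response element core, GAGGAAGT (PU.1) and the kappa B consensus. Windows were found for 6 of the 10 genes, namely C1qa, C1qb, C1r, C4b, C3 and C3ar1. Among them the interferon-stimulated core, GAGGAAGT and the kappa B consensus had 0 matches, and these occurred in 3.41%, 2.04% and 3.54% of all windows. A match is a description of letters and not a measured binding site.

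C1r and C1s encode the paired proteases of the C1 complex and also stand side by side, on chromosome 4. C1r (ENSRNOG00000011796) had 1747, 1757, 1368, 1708 and 2111 normalized counts in shControl replicates 1 to 5 and 2343, 2509, 3011, 4425 and 3050 in shOpn3. C1s (ENSRNOG00000011971) had 1452, 1917, 1705, 1763 and 1970 in shControl and 3314, 3180, 3937, 5115 and 3823 in shOpn3. The controls of C1s were tight, with a coefficient of variation of 11.6%, and every shOpn3 sample lay well above them. C1r rose by 0.80 (SE 0.161, adjusted p = 0.00504 in limma) and C1s by 1.12 (SE 0.128, adjusted p = 0.000306 in limma) on the log2 scale. The log2 difference of C1s minus C1r went from 0.02 ± 0.22 to 0.35 ± 0.11 (± SD, n = 5 per group; exact permutation p = 0.0159, adjusted p = 0.0317) and was higher in 5 of 5 pairs. That call was lost without shControl replicate 1 or 5 or shOpn3 replicate 1, 2, 3 or 5, at adjusted p from 0.0529 to 0.0794. The shifts were then 0.26 to 0.34, and the exact test had fewer splits than with all samples.

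C4b and C2 encode the parts of the enzyme that cleaves C3. C2 (ENSRNOG00000051235) had 352, 347, 234, 323 and 398 normalized counts in shControl replicates 1 to 5 and 849, 841, 1335, 1784 and 1036 in shOpn3, with a wide gap between the groups. Its log2 fold change of 1.78 (SE 0.208, adjusted p = 0.000321 in limma) was exceeded by that of 144 of the genes tested. C4b (ENSRNOG00000030729) had 106, 80.4, 82.7, 79.6 and 81.2 in shControl and 137, 104, 135, 323 and 168 in shOpn3. The groups overlapped by a narrow margin, since shOpn3 replicate 2 (104.1) lay below shControl replicate 1 (106.02). The log2 fold change was 0.90 (SE 0.252, adjusted p = 0.0266 in limma). Leaving out shControl replicate 2, 3 or 4 or shOpn3 replicate 5 ended the call, at adjusted p from 0.0502 to 0.0588, and leaving out shOpn3 replicate 4 lowered the log2 fold change to 0.64 with an adjusted p of 0.0219.

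The value of C4b is uncertain. Rats carry a near copy, C4a, whose row held 5 reads over the 10 libraries, and the RefSeq table gives C4b as another name of C4a. The printed run of 75 bases stands before the start sites of both genes without a difference. It lies at chr20:4010282-4010356 (C4a) and chr20:4201899-4201973 (C4b) on the plus strand of GRCr8. The run is the longest identical stretch of the windows before both start sites, so its identity follows from that choice. The windows differ at other positions. Because the run lies before the start sites, it does not show whether reads of C4a and C4b can be told apart.
C4a and C4b: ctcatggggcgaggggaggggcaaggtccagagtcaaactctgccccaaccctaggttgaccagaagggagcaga
Whether reads that match both copies were dropped in counting is not given in the sources used here, so the level of C4b may hold only part of the C4 transcripts.

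C3 is the protein on which all complement pathways meet, and its transcript showed the largest rise of the set. C3 (ENSRNOG00000046834) had 3285, 2440, 2739, 2296 and 3939 normalized counts in shControl replicates 1 to 5 and 9673, 14379, 40157, 42324 and 27141 in shOpn3. The lowest shOpn3 sample was thus above the highest control, and shOpn3 replicates 3 and 4 stood apart at the top. Group means were 2940 ± 675 and 26735 ± 14723 (± SD, n = 5 per group), and the log2 fold change was 3.0 (SE 0.362, adjusted p = 0.000367 in limma). Only 20 of the 15597 genes tested had a larger log2 fold change. The response varied between pairs, with shOpn3 at 2.95, 5.89, 14.7, 18.4 and 6.89 times the same-numbered control in pairs 1 to 5. Within shOpn3 the highest sample was 4.38 times the lowest, while within shControl the same ratio was 1.72.

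The 250 bases before the C3 start site, chr9:2201340-2201589 on the minus strand of GRCr8, are printed as the start region of the member with the largest change. Capitals mark 2 matches to TTNNGNAA, the spacing bound by C/EBP factors, which begin 117 and 104 bases before the start site.
C3: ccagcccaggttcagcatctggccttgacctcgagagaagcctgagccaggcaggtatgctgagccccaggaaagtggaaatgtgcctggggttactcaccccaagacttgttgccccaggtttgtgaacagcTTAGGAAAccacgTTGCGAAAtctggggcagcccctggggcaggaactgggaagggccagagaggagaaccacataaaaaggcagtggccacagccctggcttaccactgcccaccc
TTNNGNAA was found in 37.2% of all windows. It was also found in the window of C1r, the member with the smallest change.

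Cfb, which encodes factor B, could not be measured. Its 2 rows (ENSRNOG00000000419 and ENSRNOG00000051158) were listed at 0 in all 10 libraries, and a count of 0 allows up to 3 reads per library. Both rows were described as complement factor B. Cfb lies directly beside C2 in the RefSeq annotation, and C2 had between 229 and 1847 reads per library. Whether reads that match both rows were dropped in counting is not given in the sources used here.

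C3ar1 (ENSRNOG00000009211), the receptor gene, had 132, 124, 140, 136 and 129 normalized counts in shControl replicates 1 to 5 and 256, 314, 559, 705 and 428 in shOpn3. The controls had a coefficient of variation of 4.61%, the smallest among the 9 genes, and no shOpn3 sample came near them. Its log2 fold change was 1.68 (SE 0.232, adjusted p = 0.000653 in limma).

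The pairs differed in how far the whole set moved. Pairs 3 and 4 held the 2 largest log2 differences for C1qa, C1qb, C1qc, C1r, C1s, C2, C3 and C3ar1, and for C4b pair 4 led and pair 5 followed. C1qa was 1.47, 1.80, 3.89, 5.33 and 2.30 times its same-numbered control in pairs 1 to 5, C2 was 2.41, 2.42, 5.71, 5.52 and 2.60 times, and C3ar1 was 1.95, 2.53, 4.0, 5.19 and 3.33 times. C1s was the most even, at 2.28, 1.66, 2.31, 2.90 and 1.94 times. shOpn3 replicate 4 was the highest of the 10 samples for 9 of the 9 genes, against 15.6% of all genes tested and 45.8% of the 1618 genes called higher. In the lists described below it was also the highest for 8 of 8 tested microglial markers and 8 of 8 other complement receptors. The same held for 5 of 5 perivascular macrophage and 5 of 5 lymphocyte markers tested. It held for 3 of 8 astrocyte, 0 of 6 neuron and 0 of 6 oligodendrocyte markers. The lowest shOpn3 sample was replicate 1 or 2 for 9 of 9 genes, and for 61.2% of the genes called higher. When limma also took the replicate number as a block, it called 9 of the 9 genes (adjusted p from 0.000450 to 0.0223), and 30.3% of all genes were called in that fit, 15.1% higher.

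**Figure D2:**
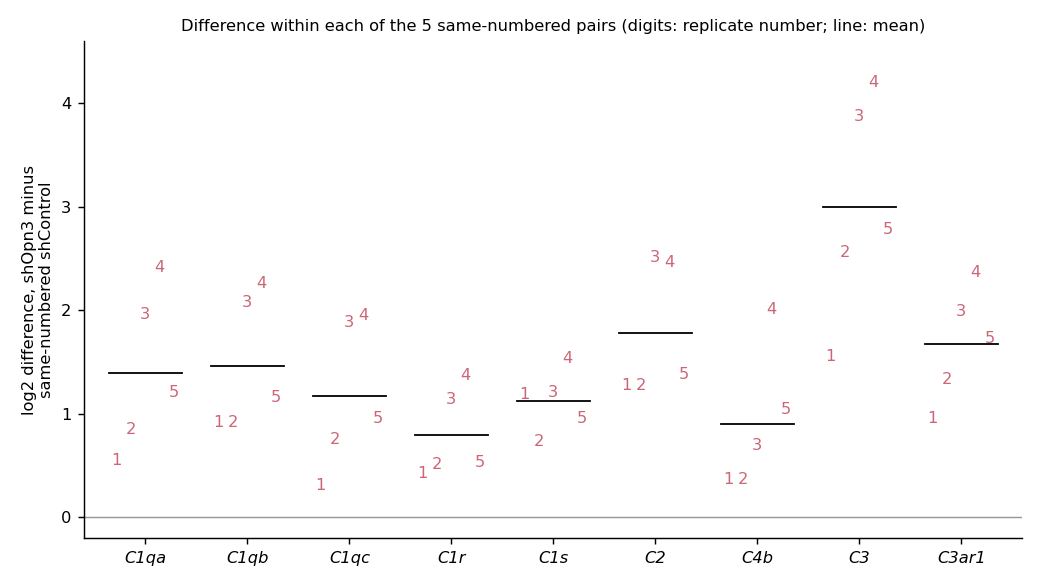
Log2 difference of shOpn3 minus the same-numbered shControl sample (vertical axis) for each of the 9 genes (horizontal axis). Digits are replicate numbers and black lines the mean of the 5 pairs; all 45 digits lie above 0, and C3 spans the widest range, from 1.56 in pair 1 to 4.20 in pair 4.

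The change of C3 was larger than that of the other members it was set against. The log2 difference of C3 minus C1qa went from 1.16 ± 0.28 in shControl to 2.76 ± 0.62 in shOpn3 (± SD, n = 5 per group), so C3 gained 1.60 on C1qa, a factor of 3.03. C4b minus C3 went from -5.06 ± 0.30 to -7.16 ± 0.74 (± SD, n = 5 per group), a shift of -2.10. The groups did not overlap in either difference, and both shifts had the same direction in 5 of 5 pairs (exact permutation p = 0.00794 each, the smallest that splits of 5 against 5 allow; adjusted p = 0.0198). C3ar1 minus C1qa moved by 0.28 (exact permutation p = 0.349) and C4b minus C1qa by -0.50 (p = 0.0635, adjusted p = 0.0893 by the same exact test), and neither was called. Of 10 differences between genes 5 were called. None could be called over the 5 pairs, whose exact sign-flip test allows no p below 0.0625. With shControl replicate 1 or shControl replicate 5 left out the count was 0, with an adjusted p of 0.0529 for C3 minus C1qa and for C4b minus C3. Exact tests without 1 library have fewer splits than 5 against 5, so a lost call alone does not show a weaker shift. Over the fits without 1 library the shift of C3 minus C1qa ran from 1.42 to 1.85. That of C4b minus C3 ran from -2.36 to -1.84.

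**Figure D3:**
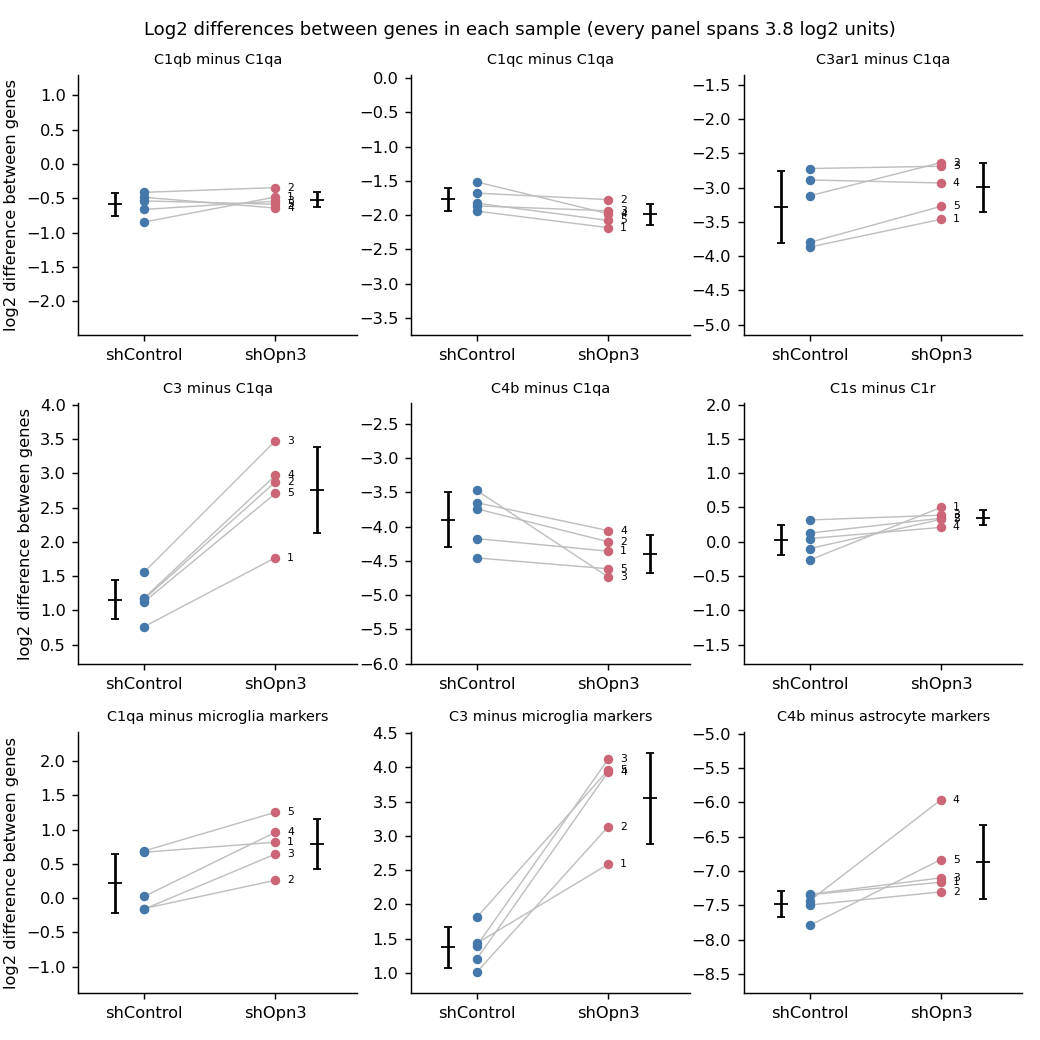
Log2 difference between 2 genes, or between a gene and the mean of a marker list, in each sample (vertical axes, all spanning the same number of log2 units). Colours, lines, digits and bars are as in the plot of normalized counts; C3 minus C1qa separates the groups (at most 1.56 in shControl, at least 1.77 in shOpn3), whereas C1qb minus C1qa does not.

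The rest of the complement system was read from 4 lists with 49 genes, of which 45 were in the table and 36 were tested. Among the 36 there were 10 higher and 1 lower, 30.6% in all against 18.8% of all genes (10.4% higher and 8.48% lower), and the median log2 fold change was 0.19 against -0.02. The count was 6 without shOpn3 replicate 3 and 7 without shControl replicate 2 or shOpn3 replicate 5.

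The receptors moved most often, with 5 of 8 tested genes higher and none lower (62.5%). Itgax and Itgam encode the integrin chains that make complement receptors 4 and 3 with the shared chain encoded by Itgb2. Itgax rose from 40.8 ± 6.30 to 277 ± 113 normalized counts (± SD, n = 5 per group; a log2 change of 2.64 with an SE of 0.261, adjusted p = 0.000155 in limma). Itgb2 and Itgam rose by 1.49 and 1.48 (SE 0.207 and 0.240; limma adjusted p = 0.000682 and 0.00141), and the groups did not overlap for any of these 3. The C5a receptor genes C5ar2 and C5ar1 rose by 0.96 and 0.88 (limma adjusted p = 0.0205 and 0.0281). The call of C5ar2 was lost without shControl replicate 2 or shOpn3 replicate 3 (adjusted p of 0.0564 at most), and that of C5ar1 without shControl replicate 1, 2 or 3 or shOpn3 replicate 3, 4 or 5 (0.0698 at most). Cr2, Cd93 and Calr were not called, with log2 fold changes of 1.03, -0.08 and 0.04. These integrins are also microglial and macrophage genes, so the receptor list and the microglial markers below are not separate groups of cells.

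Of 17 regulator genes tested, 3 were higher and 1 lower (23.5%), a share near the 18.8% of all genes. Serping1, which encodes the inhibitor of C1r and C1s, rose from 2018 ± 473 to 4492 ± 1118 normalized counts (± SD, n = 5 per group; a log2 change of 1.15 with an SE of 0.182, adjusted p = 0.00128 in limma). Cd55, the membrane protein that takes apart the C3-cleaving enzymes, had 1782, 2244, 3000, 2693 and 1519 in shControl replicates 1 to 5 and 1182, 1393, 1109, 1151 and 743 in shOpn3. It fell by 0.99 on the log2 scale (SE 0.199, adjusted p = 0.00471 in limma), without overlap of the groups and in 5 of 5 pairs, and was the only complement gene called lower in this fit. Clu, a secreted inhibitor of the terminal complex, rose by 0.51 (SE 0.138, adjusted p = 0.0229 in limma), a call that was lost without shControl replicate 2, 3 or 4 or shOpn3 replicate 3, 4 or 5 (adjusted p of 0.0581 at most). Cd59, which blocks the membrane attack complex on cells, was not called (log2 fold change -0.18, limma adjusted p = 0.293), and neither were Sez6l2 (-0.37) and Sez6l (0.06). Limma-voom with sample weights did call Cd59 lower (log2 fold change -0.33, adjusted p = 0.00855). C4bpa, which encodes a chain of the C4b-binding protein, was under the minimum mean and so not tested, with 12 reads over shControl and 45 over shOpn3. Its normalized counts were 0 to 4.22 in shControl and 4.83 to 12.3 in shOpn3, without overlap, and it was named after its values were seen.

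In the lectin and the terminal branches 2 of 11 genes tested were called. These were 20% of the first list and 16.7% of the second, near the 18.8% of all genes. Fcna, a ficolin gene, rose by 0.71 (limma adjusted p = 0.0492) and was the only one called of 5 tested genes in its list. Colec12, Masp1 and Colec11 had log2 fold changes of 0.13, 0.18 and -0.43 without a call. Masp1 nevertheless ranged from 798 to 932 normalized counts in shControl and from 961 to 1051 in shOpn3, without overlap (limma adjusted p = 0.0966). C9, which forms the pore of the membrane attack complex, rose from 17.1 ± 4.72 to 35.7 ± 13.9 (± SD, n = 5 per group; a log2 change of 0.98, adjusted p = 0.0361 in limma). C9 was the only one called of 6 tested in the alternative and terminal list, where C7, Cfp and C6 had -0.09, 0.19 and -0.06. The call of Fcna held only in the fits without shControl replicate 1 or 5 or shOpn3 replicate 2 among the 10 that left out 1 library (adjusted p up to 0.111 in the others). The call of C9 held only without shControl replicate 2 or shOpn3 replicate 1 or 4 (up to 0.101 in the others). Both calls were also lost with no minimum mean (adjusted p = 0.0741 for Fcna and 0.0594 for C9 in limma) and with quantile normalization (0.0688 and 0.104). Mbl1 was listed at 0 in all libraries, C8a had 2 reads in all and Vsig4 had 1. With the replicate block Colec11 and Sez6l2 were also called lower (limma adjusted p with the block = 0.0233 and 0.00936). That made 13 calls of 36, beside 30.3% of all genes called in the same fit. Without the block Colec11 was also called without shControl replicate 3 (adjusted p = 0.0477) and Sez6l2 without shControl replicate 5 or shOpn3 replicate 1 (0.0330 and 0.0219), both by limma. Colec11 was called lower with quantile normalization (limma adjusted p = 0.0153) and by DESeq2 (adjusted p = 0.0467). Sez6l2 was called lower by DESeq2 (adjusted p = 0.0450) and by limma-voom with sample weights (adjusted p = 0.00414). Masp1 was called higher by DESeq2 (adjusted p = 0.0475).

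**Figure D4:**
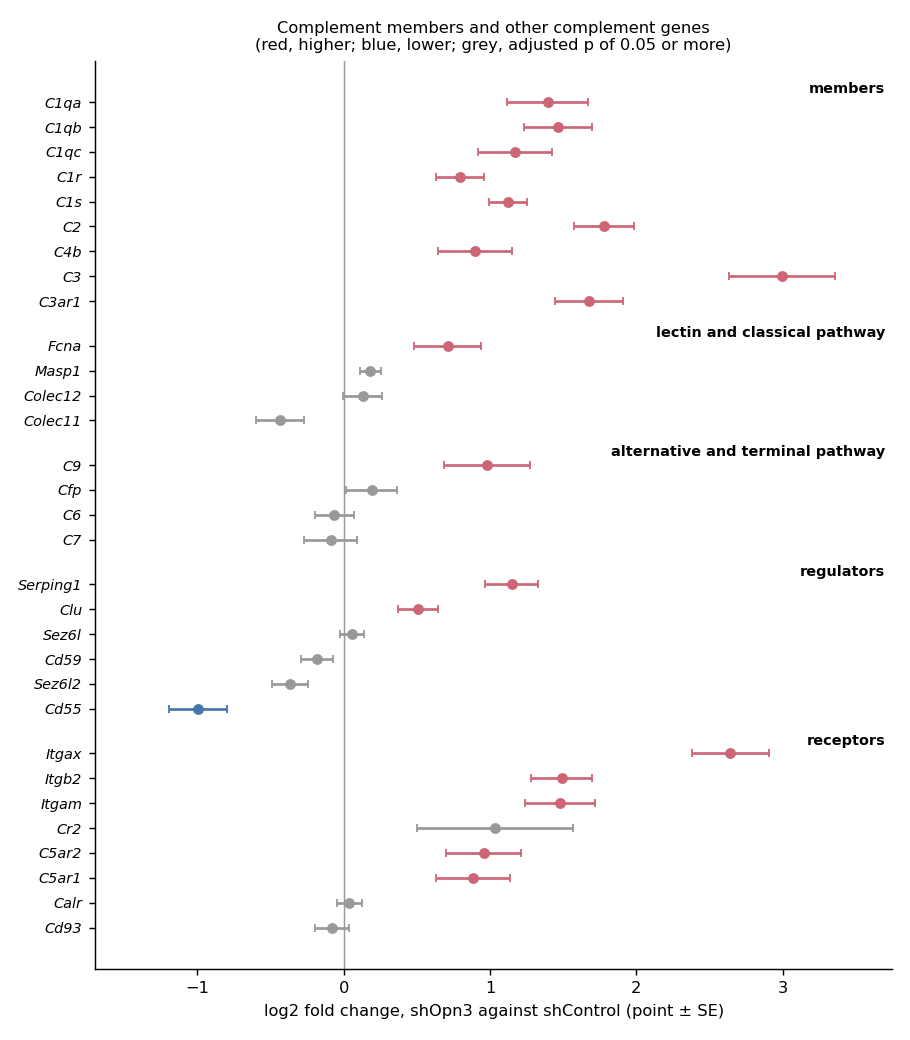
Log2 fold change of shOpn3 against shControl with its SE (horizontal axis) for the 9 complement members with reads and 22 other named complement genes (vertical axis), grouped by role. Red marks genes called higher, blue genes called lower and grey genes with a limma adjusted p of 0.05 or more; C3 and Itgax lie furthest to the right and Cd55 alone is blue.

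Marker genes of cells that can make complement moved along with these genes. Of 8 tested microglial markers 6 were higher and none lower (75% called, against 10.4% of all genes higher and 8.48% lower), with a median log2 fold change of 0.91. Their summed level was 14118 to 16204 normalized counts in shControl and 21524 to 37723 in shOpn3, without overlap. Taken singly, 5 of the 8 were higher without overlap, against 8.03% of all genes. Csf1r, Aif1 and Gpr34 had log2 fold changes of 1.06, 1.10 and 0.95. Siglech was at or near 0 (0 to 12.6 normalized counts). C1qa minus the mean of the 8 microglial markers changed by 0.57 on the log2 scale, higher in 5 of 5 pairs but not called (exact permutation p = 0.0635, adjusted p = 0.0893). C3 minus the same mean changed by 2.17, from 1.37 ± 0.30 to 3.55 ± 0.66 (± SD, n = 5 per group; exact permutation p = 0.00794, adjusted p = 0.0198), without overlap.

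Astrocyte markers were mixed, with 3 of 8 higher (37.5%, against 10.4% of all genes). Their summed level was 262859 to 347382 normalized counts in shControl and 309692 to 450014 in shOpn3. Gfap, the intermediate filament of reactive astrocytes, had a log2 fold change of 1.10 and Aqp4 one of 0.45, while Slc1a3 (-0.14) and S100b (-0.04) were not called. The call of Aqp4 was lost without shOpn3 replicate 3 (limma adjusted p = 0.0514). C4b minus the mean of the 8 astrocyte markers went from -7.48 ± 0.19 to -6.87 ± 0.54 (± SD, n = 5 per group; exact permutation p = 0.00794, adjusted p = 0.0198), without overlap. The shift of 0.61 was 0.38 without shOpn3 replicate 4. Its call was lost without shControl replicate 1 or 5 (adjusted p = 0.0595 and 0.0661 by exact permutation, with fewer splits). The shifts were then 0.64 and 0.53. The mean includes the markers that were not called, and the log2 fold change of Gfap alone was above that of C4b (0.90).

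Markers of other cells that could bring complement transcripts were called in part. Beside them, 10.4% of all genes were called higher and 8.48% lower, 18.8% in all. The share called was 20% of the perivascular macrophage, 33.3% of the monocyte and neutrophil and 40% of the lymphocyte markers tested. Of 5 perivascular macrophage markers only Mrc1 was higher (log2 fold change 0.54), and the summed level overlapped between groups (1331 to 1825 against 1758 to 2849 normalized counts). Of 3 tested monocyte and neutrophil markers Plac8 was higher (1.84), while S100a8 and S100a9 had -0.61 and -0.25 without a call. The sums were 276 to 705 and 411 to 2501, and most of each was Plac8, which alone had 170 to 380 in shControl and 307 to 2195 in shOpn3. Of 5 tested lymphocyte markers Cd3e and Cd8a were higher (1.45 and 1.04), with sums of 52.0 to 125 and 113 to 293. None of 3 fibroblast, 5 endothelial and mural, 4 choroid plexus or 2 blood and liver markers tested was called. With the replicate block, where 30.3% of all genes were called, 1 endothelial and mural marker was higher and 1 choroid plexus marker lower. The lowest log2 fold change among the choroid plexus markers was -2.02. Their sums were 986 to 3274 normalized counts in shControl, highest in replicate 5, and 773 to 1135 in shOpn3. All 6 oligodendrocyte markers were lower, and of 6 neuron markers 1 was higher and 1 lower. Their part in the complement changes was not tested.

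Likeness of pattern was measured as the root mean square difference between log2 profiles over the 10 samples, each centred on its own mean, among 13913 genes with a symbol. Nearest to C1qa were Fgd2 (0.116), Cd37 (0.128) and Ptpn6 (0.134), genes known from blood-lineage cells, with C1qb in place 4 (0.134) and C1qc in place 11 (0.183). C3 lay far from C1qa (0.910), and its nearest genes were F10 (0.325), Lag3 (0.330) and Olr1 (0.341), which had log2 fold changes of 2.77, 2.75 and 2.82. Seen from C3, C1qa held place 180, and C2 (place 60) and C3ar1 (place 62) were the closest members. These profiles keep the difference between the groups, so the distances also hold differences in log2 fold change and are not separate from them. Nearest to C4b were Tap1 (0.173), Grn (0.197) and Lrrc25 (0.205), and of the other members C1r came closest to it (0.275, place 46).

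In the authors' deposited table, the 9 genes had log2 fold changes from 0.82 (C1r) to 3.18 (C3), with adjusted p from 1.79e-14 (C2) to 0.00215 (C4b).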

How the data were processed

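RNA sequencing of 10 rat supraoptic nuclei had been deposited as a single table. Per the labels' titles, samples fell into shControl and shOpn3, 5 each. FastQC, STAR, featureCounts and DESeq2 are named in the submitters' processing notes, without versions. The genome build, the annotation and the strand setting are not given in the sources used here. The values are a signal per gene, which the authors made by dividing read counts by 1 size factor per sample. All positive values were whole multiples (tolerance 0.01) of each library's smallest, so 100% of whole reads were recovered. Per the file headers, the authors' comparison was deposited with it, as a log2 fold change, its standard error, a Wald score, and a p-value with its adjusted value.

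Values were taken as log2(normalized count + 1), a scale that understates the change of low genes. Genes with a mean of at least 10 were compared with limma 3.58.1 in R 4.3.3 (eBayes with trend, two-sided, group alone), adjusted over all 15597 genes by Benjamini-Hochberg with a threshold of 0.05. Differences between genes were compared by exact permutation of samples, and Cfb minus C2 was left out because Cfb had no reads. Alternatives were the replicate block, edgeR 4.0.16 and DESeq2 1.42.0 on the recovered reads, limma-voom with sample weights, quantile normalization, other pseudocounts (0.5 and 5), no minimum mean, and each library left out. DESeq2 with the group alone gave the authors' log2 fold changes, with 0 of 17437 genes differing by more than 1e-04.

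Per the labels' protocols both nuclei of a rat were used, one per group, although no label ties equal numbers to the same rat. Deviations from the group means correlated across genes in all 5 same-numbered pairs (r from 0.12 to 0.44). For the 20 combinations of different numbers r ran from -0.45 to 0.36, with a median of -0.21. The numbers were taken to pair the samples on this ground, which is weakest for pair 4 (0.12). shControl replicate 4 correlated more with shOpn3 replicates 2 and 3 (0.24 each) than with shOpn3 replicate 4. P-values without the block measure the spread between these samples.

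The genes described, the lists and the differences between genes were chosen with earlier results of these data known. All 10 members were named, and 2 genes of the other lists are counted but not reported by name here. Of each other complement list up to 5 called genes (smallest adjusted p) and 3 uncalled (highest mean) were named, with up to 4 markers per cell type and the 3 genes most like C1qa, C3 and C4b; others were named after their values were seen. Promoter windows and gene order came from RefSeq (GRCr8), in which all 10 symbols were found. Floors cover counting error only.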

Additional observations from a re-analysis of the deposited data

Results flagged for a closer look

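Group values were screened for single samples that lay far apart, over each named gene and each difference between genes. Of 124 sets of 5 samples 5 had such a sample, where about 6.2 would by chance at 1 in 20. For C4b it was shControl replicate 1 (106.02 normalized counts, the nearest being 82.7), which is also the control that made its groups overlap. For C4b minus C3 it was shControl replicate 5, at -5.58 against -5.03. Cr2 reached 68.6 in shOpn3 replicate 4 and 27.7 in the nearest sample. Aqp4 reached 95299 in shControl replicate 5 (nearest 83143) and Oxt 56716 in shControl replicate 1 (nearest 21354).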

How the results depend on the processing

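Over 18 alternative fits, the 9 complement genes with reads kept their direction in all 162 values and their call in 158. The other 4 were C4b without 1 library, and the count of members called was 8 or 9 in every fit. The number of genes called over the whole table was 2940, and it was 4726 with the replicate block, 5085 with limma-voom and sample weights, and 1973 to 3057 without 1 library. The 11 calls among other complement genes became 6 to 13 without 1 library, and were at most 16 over the 18 fits. With the pairing by replicate number, the sign-flip test called 0 of 10 differences between genes, since 5 pairs allow no p below 0.0625. Leaving out 1 library, which leaves the exact permutation test fewer splits, gave 0 to 5. The block ended no call of a member. Uncalled log2 fold changes near 0 changed sign for Colec12 (-0.0323), Calr (-0.0100) and S100b (0.0782) with limma-voom and for S100b with quantile normalization (0.0155). Without 1 library C7 ran from -0.237 to 0.0130, Calr from -0.00878 to 0.0817 and S100b from -0.117 to 0.0560. The causes were not tested. Cfb and C4a had too few reads for a change to be detectable.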
